A study of Mus musculus with 8 samples.

Results

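The Hedgehog pathway genes Shh, Ihh, Ptch1, Gli1, Gli2, Gli3, Smo, Hhip and Sufu were followed in organoids of the embryonic mouse glandular stomach. These 9 genes were taken by symbol from a table of 53170 named genes, each from a single row, and 5 of them were counted often enough to be tested among 14058 genes. Bulk RNA sequencing was carried out on 8 libraries of organoids derived from hindstomach epithelium at embryonic day 18.5 and kept for 5 days in growth medium. The 4 YAP5SA libraries have the genotype Shh-Cre;YAP5SA, and the 4 control libraries have Shh-Cre alone. All 8 therefore carry Shh-Cre, a recombinase driven from Shh regulatory sequence, which is active in foregut epithelium. YAP5SA is a form of the transcriptional coactivator YAP that the Hippo kinases cannot restrain. The labels give neither the structure of the Cre allele nor the promoter or locus of the YAP5SA transgene, and they do not say whether libraries come from separate embryos or cultures. The p-values thus rest on library-to-library spread alone, and that spread may be technical.

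In the Hedgehog pathway, a secreted ligand (Shh, Ihh or Dhh) binds the receptor Ptch1, which otherwise holds the membrane protein Smo inactive. Active Smo, working in the primary cilium, frees the GLI transcription factors from Sufu, and these switch on target genes, among them Gli1, Ptch1 and Hhip, so that the pathway reports on itself. In the gut, the ligands are made mainly by the epithelium, and the surrounding mesenchyme is the main tissue that answers with Gli1, Hhip and Foxf1.

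Total counts of named genes per library were 15310074 to 17848875 in YAP5SA and 13646225 to 19668033 in control. Mesenchymal cells were scarcely represented. None of 11 mesenchymal marker genes reached the test, Lum and Barx1 had 0 reads, and the summed level of the list was 0.72 to 1.77 CPM (reads per gene, scaled for library size) in YAP5SA and 1.88 to 4.36 CPM in control. Pecam1, Ptprc and Wt1, which define endothelium, immune cells and mesothelium, were also too low to test, at most 0.39 CPM on average in YAP5SA and 0.51 CPM in control (Ptprc in both). The endothelial list (1 of 5 genes tested, Tek, which fell) summed to 0.06 to 0.84 CPM in YAP5SA and 6.50 to 13.7 CPM in control. The immune list (2 of 4 tested, 1 higher and 1 lower) summed to 9.66 to 10.4 CPM in YAP5SA and 19.6 to 39.1 CPM in control, and the enteric neural list (1 of 4 tested, Ret, which fell) to 3.04 to 4.01 CPM in YAP5SA and 5.68 to 10.1 CPM in control. The mesothelial list (3 of 4 tested, 2 higher and 1 lower) was carried by Msln, at 1441 ± 141 CPM in YAP5SA and 3246 ± 208 CPM in control. The part of these markers in the results was not tested. Epcam, a general epithelial surface protein, averaged 640.4 ± 20.8 CPM in YAP5SA and 485.7 ± 47.2 CPM in control (SD, n = 4 each). The stomach claudin Cldn18 was at 2.05 ± 1.31 CPM in YAP5SA, against 1353 ± 42 CPM in control, so the YAP5SA organoids nearly lacked this marker of the labelled tissue. Of 7 general epithelial markers 1 rose, 4 fell and 2 were not past the threshold, and of 9 stomach epithelial markers 8 fell and Sox2 rose. Of all tested genes, 23.6% were called higher in YAP5SA and 25.5% lower. Xist was 0.41 to 2.76 CPM in YAP5SA libraries and 675.6 to 1049 CPM in control libraries, so sex and genotype cannot be told apart in any comparison given here.

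The comparison of YAP5SA with control organoids showed opposite changes of the ligand genes, a modest rise of the receptor gene Ptch1, and no reads at all of Gli1, Gli2 or Hhip in either group. Shh was 1.63-fold higher and Ihh 6.39-fold lower in YAP5SA, while Ptch1 was 1.34-fold higher. Of the 5 tested members 2 rose, 2 fell and Smo did not pass the test, and across all tested genes 49.1% passed it (23.6% higher in YAP5SA and 25.5% lower). With so many genes past the test, the number of members that passed is no result about the pathway, and the members are described by their values.

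**Figure D1:**
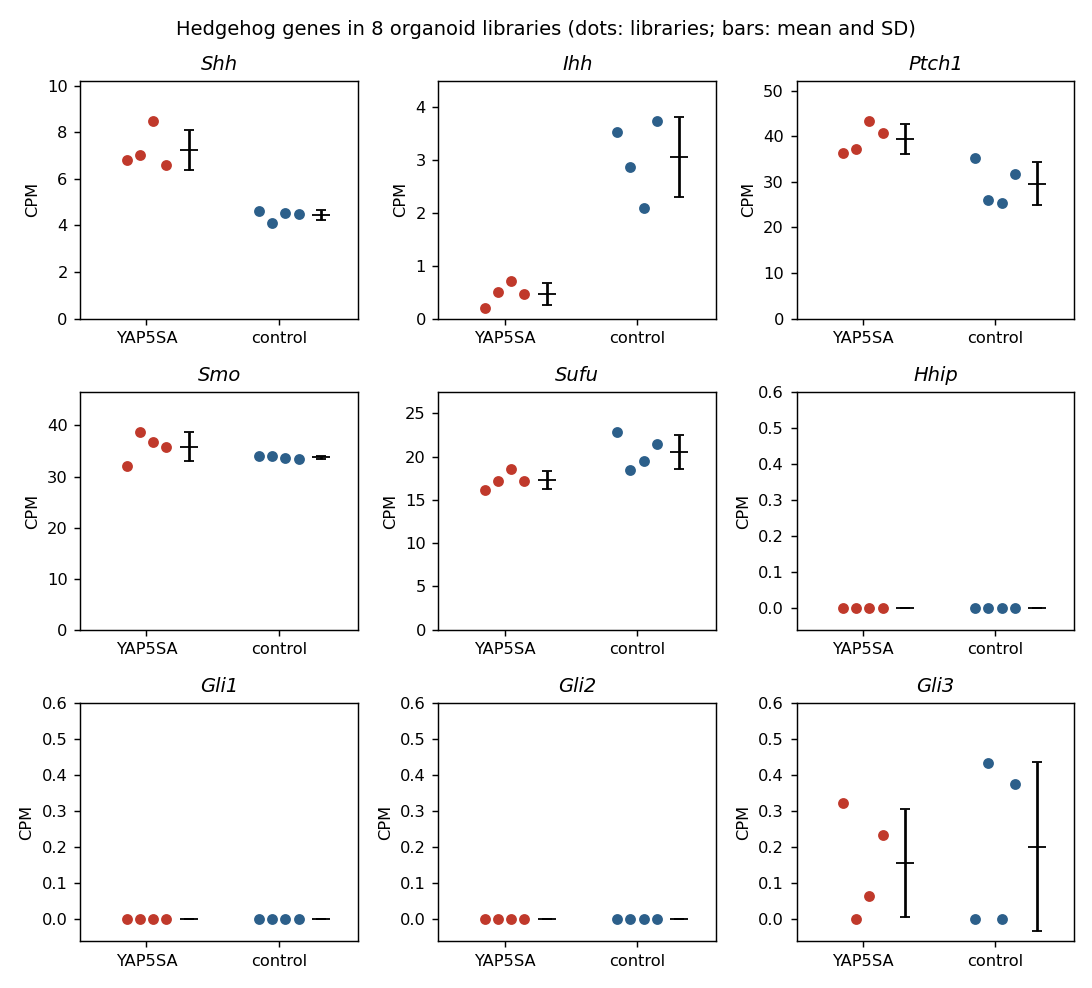
Level of each of the 9 Hedgehog genes in CPM (linear axes, 1 panel a gene) in the 4 YAP5SA and the 4 control libraries, with the mean and SD beside each group. All YAP5SA libraries lie above all controls for Shh and Ptch1 and below them for Ihh, and Hhip, Gli1 and Gli2 are at 0 in every library.

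Among the ligands, Shh encodes Sonic hedgehog, the ligand of early foregut and adult stomach glands. Its level was 6.80, 7.01, 8.50 and 6.60 CPM in YAP5SA 1 to 4 and 4.61, 4.12, 4.53 and 4.50 CPM in control 1 to 4. Every YAP5SA library was above every control, and YAP5SA 3 was the highest. The log2 fold change was 0.70 ± 0.14 SE (Benjamini-Hochberg adjusted p = 0.000476 by edgeR). Both groups carry the Shh-Cre allele, and whether it adds reads to the Shh gene in either group cannot be read from these counts. Reads of the antisense gene 9530036O11Rik, which overlaps Shh, numbered 3 in YAP5SA and 4 in control over the whole group. Another antisense gene that overlaps Shh was not among the named genes, so its reads are not known. Antisense genes also overlap Gli1, Gli3 and Hhip. In bulk RNA, fewer cells of a type and less RNA per cell cannot be told apart, here and in every comparison that follows.

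Ihh encodes Indian hedgehog, the ligand of differentiated gut epithelium and growing cartilage. It was at 0.19, 0.50, 0.71 and 0.47 CPM in YAP5SA 1 to 4, against 3.54, 2.87, 2.09 and 3.75 CPM in control 1 to 4. The groups were far apart, although the YAP5SA values rest on 3, 9, 11 and 8 reads. The log2 fold change was −2.68 ± 0.34 SE (Benjamini-Hochberg adjusted p = 3.18e-06 by edgeR). Of all tested genes, 4.35% had a larger absolute log2 fold change than Ihh, against 20.5% for Shh.

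The third ligand gene, Dhh, known from testis and peripheral nerve, moved like Ihh. It was at 0.36 ± 0.20 CPM in YAP5SA and 4.36 ± 0.71 CPM in control (SD, n = 4 each), a log2 fold change of −3.56 ± 0.31 SE (Benjamini-Hochberg adjusted p = 2.78e-08 by edgeR). Divided by exon length, Shh had the highest mean of the ligands in both groups, also with the longest transcript as length. With the longest transcript, Ihh came to 0.19 ± 0.09 CPM per kb in YAP5SA and 1.24 ± 0.30 CPM per kb in control. Shh, with the same value by either length, was at 2.54 ± 0.30 CPM per kb in YAP5SA and 1.56 ± 0.08 CPM per kb in control. In control the mean ± SD ranges of Shh and Ihh thus overlapped with the longest transcript. The values that follow are per kb of exon. Ihh and Dhh were at 0.15 ± 0.07 and 0.08 ± 0.05 CPM per kb in YAP5SA, and at 1.0 ± 0.25 and 0.99 ± 0.16 CPM per kb in control, so Ihh and Dhh did not differ beyond their spread in either group. Shh made up 88.5% to 95.7% of the summed ligand level per kb in YAP5SA libraries, against 40.9% to 47.8% in control libraries. The sum itself was 2.77 ± 0.35 CPM per kb in YAP5SA and 3.56 ± 0.36 CPM per kb in control, with overlapping ranges (YAP5SA 2.50 to 3.28, control 3.19 to 3.96), and was not tested.

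**Figure D2:**
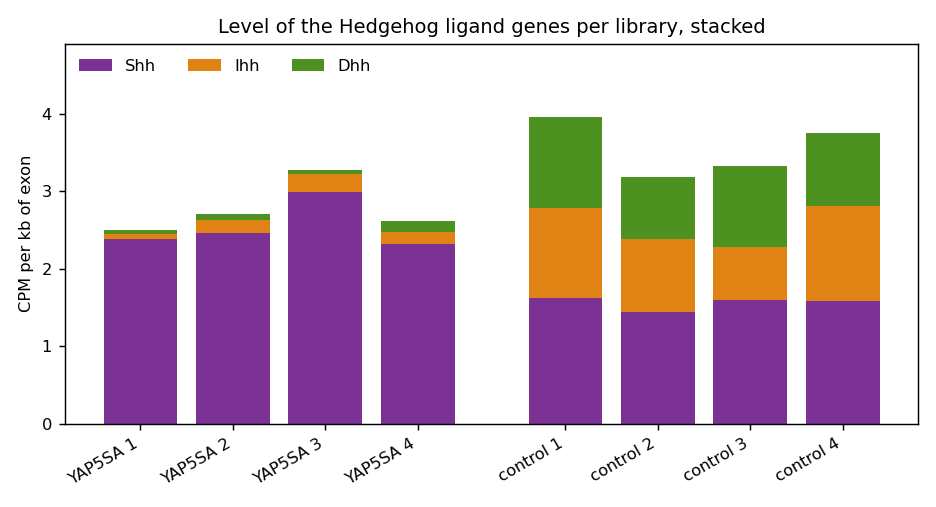
Stacked level of Shh, Ihh and Dhh in CPM per kb of exon in each of the 8 libraries, YAP5SA at the left and control at the right. The Shh part fills 88.5% to 95.7% of each YAP5SA bar and 40.9% to 47.8% of each control bar.

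Ptch1, the receptor and itself a target gene of the pathway, was at 36.4, 37.3, 43.5 and 40.7 CPM in YAP5SA 1 to 4 and at 35.2, 26.1, 25.5 and 31.7 CPM in control 1 to 4. The groups did not overlap, but YAP5SA 1 and control 1 were close to each other. Across all tested genes, 45.7% had groups that did not overlap. The log2 fold change was 0.42 ± 0.10 SE (Benjamini-Hochberg adjusted p = 0.00189 by edgeR), and 34.1% of tested genes had a larger absolute change.

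Smo, the membrane protein that carries the signal onward, was at 32.1, 38.8, 36.8 and 35.8 CPM in YAP5SA 1 to 4 and at 34.0, 34.0, 33.6 and 33.4 CPM in control 1 to 4. The controls were nearly equal, and the YAP5SA values lay on both sides of them. The log2 fold change was 0.09 ± 0.07 SE with a 95% interval of −0.06 to 0.24 (Benjamini-Hochberg adjusted p = 0.328 by edgeR), which does not show that the groups are alike.

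Sufu, the cytosolic inhibitor that holds GLI proteins, was at 16.1, 17.2, 18.6 and 17.1 CPM in YAP5SA 1 to 4 and at 22.9, 18.4, 19.5 and 21.5 CPM in control 1 to 4. YAP5SA 3 and control 2 overlapped. The log2 fold change of −0.25 ± 0.09 SE passed narrowly (Benjamini-Hochberg adjusted p = 0.0353 by edgeR). The call was lost without any 1 of control 1, control 4, YAP5SA 1, YAP5SA 2 or YAP5SA 4 (adjusted p of 0.0616 to 0.105, edgeR), with library size scaling (0.0573) and without a filter on low counts (0.0826).

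**Figure D3:**
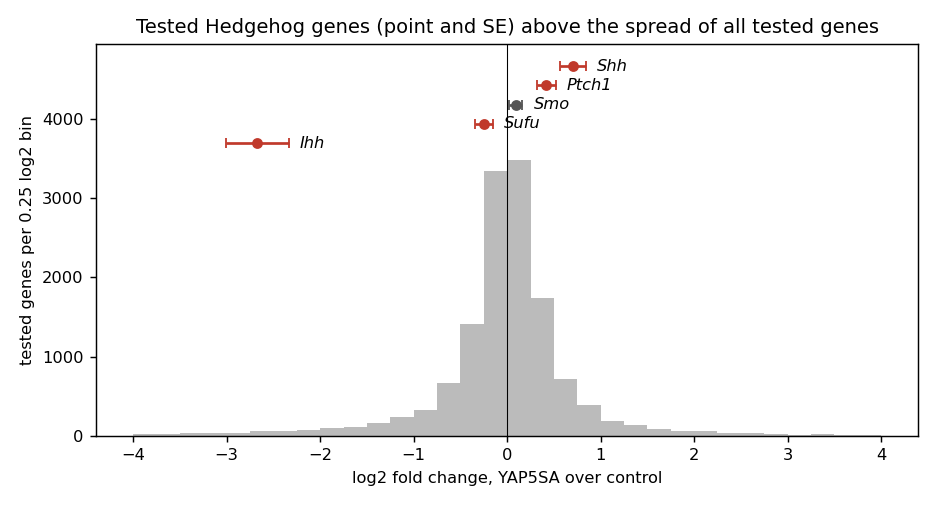
Log2 fold change of the 5 tested Hedgehog genes, YAP5SA over control (points with SE, red where the adjusted p is under 0.05), above a histogram of all 14058 tested genes in bins of 0.25, of which 337 lie beyond the drawn range of −4 to 4. Ihh stands far to the left at −2.68, and the other 4 lie between −0.25 and 0.70.

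The transcription factors at the end of the pathway were not detected or nearly so. Gli1, the activator that is itself a standard readout of Hedgehog response, had 0 reads in all 8 libraries. So did Gli2, the main activator in mouse embryos, and Hhip, a surface protein that binds and sequesters the ligands. A count of 0 over a group allows a level of up to 0.0558 CPM in YAP5SA and 0.0548 CPM in control (upper end of the 95% exact Poisson interval, counting error only). No direction can be given for these genes. Of 21236 protein-coding genes matched by symbol, 4617 (21.7%) had 0 reads in all libraries. Gli3, which acts mostly as a repressor, had 5, 0, 1 and 4 reads in YAP5SA 1 to 4 and 0, 8, 0 and 5 reads in control 1 to 4. Both groups held libraries with reads and libraries without. The pooled Gli3 level was 0.151 CPM in YAP5SA (95% exact Poisson interval 0.0726 to 0.278) and 0.193 CPM in control (0.103 to 0.330), a difference within counting error.

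Per kb of exon, Smo was the highest of the 9 in both groups, with 6.38 ± 0.50 CPM per kb in YAP5SA and 6.0 ± 0.05 CPM per kb in control (SD, n = 4 each). In YAP5SA it was followed by Ptch1 (2.78 ± 0.23), Shh (2.54 ± 0.30) and Sufu (2.25 ± 0.13 CPM per kb), whose ranges overlapped from neighbour to neighbour. In control the order was Sufu (2.67 ± 0.26), Ptch1 (2.09 ± 0.33), Shh (1.56 ± 0.08) and Ihh (1.0 ± 0.25 CPM per kb), and Sufu and Ptch1 overlapped. With the longest annotated transcript as length, Smo was again first, at 9.49 and 8.93 CPM per kb in YAP5SA and control. Sufu then stood at 3.82 and Ptch1 at 3.80 CPM per kb in YAP5SA, both above Shh at 2.54, so the order below Smo depends on the length used in YAP5SA. In control the order of the means was the same with either length (Sufu 4.55, Ptch1 2.85, Shh 1.56 and Ihh 1.24 CPM per kb with the longest transcript). The mean ± SD ranges of Shh and Ihh overlapped there.

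Upstream sequence was looked at because Gli and TEAD factors, the DNA-binding partners of Hedgehog signalling and of YAP, act through short motifs. The RefSeq table for GRCm38.p6 held 7 of the 9 members, and Shh and Gli1 were not among them. The 250 bases before the annotated start were searched on both strands for the GLI motif GACCACCCA and for the TEAD core CATTCC, whose matches did not overlap. None of the 7 windows held the GLI letters, which occur in 0.225% of 32851 such windows, and the TEAD letters occurred in Smo alone, against 12.6% of all windows. The windows of Ihh (chr1:74951673-74951922, minus strand), which fell, of Ptch1 (chr13:63565736-63565985, minus strand), which rose, and of Smo (chr6:29735247-29735496, plus strand), which did not pass the test, are given 5′ to 3′, with the motif match in capitals.
Ihh: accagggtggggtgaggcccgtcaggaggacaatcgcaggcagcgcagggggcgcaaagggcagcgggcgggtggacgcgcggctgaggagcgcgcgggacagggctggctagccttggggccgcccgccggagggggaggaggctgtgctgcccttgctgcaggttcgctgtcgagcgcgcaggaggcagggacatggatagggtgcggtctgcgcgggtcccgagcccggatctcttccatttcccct
Ptch1: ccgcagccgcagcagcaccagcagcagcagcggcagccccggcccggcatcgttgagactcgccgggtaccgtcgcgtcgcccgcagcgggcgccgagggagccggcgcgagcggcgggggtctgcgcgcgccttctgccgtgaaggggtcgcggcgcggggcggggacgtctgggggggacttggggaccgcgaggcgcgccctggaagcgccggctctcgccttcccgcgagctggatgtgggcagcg
Smo: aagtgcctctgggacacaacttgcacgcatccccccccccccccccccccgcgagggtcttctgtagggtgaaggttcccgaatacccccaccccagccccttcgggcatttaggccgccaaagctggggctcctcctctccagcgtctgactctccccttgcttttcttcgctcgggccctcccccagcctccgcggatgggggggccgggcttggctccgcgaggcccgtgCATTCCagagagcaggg
The match in Smo begins 17 bases before the start, on the strand of the gene. These are matches of letters, and binding was not measured.

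The remaining pathway genes were grouped by role. Of 65 such genes 55 were tested, of which 12 rose, 24 fell and 19 did not pass, with a median log2 fold change of −0.14, against 0.00 for all tested genes. That is 65.5% past the test, beside 49.1% of all tested genes. Among genes of ligand production and release, 1 of 4 tested genes rose and 2 fell, with Dhh as given above. Disp1, which releases the lipid-bound ligand from the cell that makes it, fell to 13.4 ± 1.7 CPM in YAP5SA, against 25.5 ± 2.6 CPM in control (log2 fold change −0.92 ± 0.10 SE, Benjamini-Hochberg adjusted p = 8.42e-07 by edgeR). All 4 YAP5SA libraries were below all controls. Its relative Disp2 went the other way at a low level, 1.93 ± 0.39 CPM in YAP5SA and 0.40 ± 0.17 CPM in control. Hhat, the acyltransferase that adds palmitate to the ligands, did not pass (0.98 ± 0.19 CPM in YAP5SA, 0.80 ± 0.29 CPM in control).

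Of 5 tested genes of ligand reception 2 rose and 3 fell, 100% past the test, beside 49.1% of all tested genes. Gpc6, a glypican that promotes Hedgehog response in mouse growth plate, rose to 13.1 ± 0.9 CPM in YAP5SA, against 4.87 ± 1.22 CPM in control (log2 fold change 1.45 ± 0.15 SE, Benjamini-Hochberg adjusted p = 3.09e-07 by edgeR). The co-receptor gene Boc rose from a low base, at 1.01 ± 0.22 CPM in YAP5SA and 0.31 ± 0.22 CPM in control. Cdon, a co-receptor gene at a higher level, fell to 23.2 ± 1.1 CPM in YAP5SA, against 27.5 ± 3.6 CPM in control. Its log2 fold change of −0.24 ± 0.09 SE passed narrowly (Benjamini-Hochberg adjusted p = 0.0387 by edgeR) and was not run through the alternative fits. Lrp2, an endocytic receptor that takes up Shh in the forebrain, fell to 3.30 ± 1.40 CPM in YAP5SA, against 7.58 ± 2.36 CPM in control, and its groups overlapped. Gpc3, a glypican that competes with Ptch1 for ligand, was at 2.02 ± 0.38 CPM in YAP5SA and 3.39 ± 1.14 CPM in control, a fall whose call was lost without control 3 or without YAP5SA 2 (adjusted p = 0.0969 and 0.0576, edgeR). Gas1, another co-receptor gene, was too low to test.

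Of 16 genes that control SMO or GLI proteins, 3 rose, 6 fell and 7 did not pass. That is 56.25% past the test, beside 49.1% of all tested genes. Gpr161, a ciliary receptor that keeps the pathway off by raising cyclic AMP, was at 0.84, 0.66, 0.84 and 0.71 CPM in YAP5SA 1 to 4, against 3.16, 3.19, 3.11 and 4.13 CPM in control 1 to 4. The groups were well apart, with a log2 fold change of −2.14 ± 0.25 SE (Benjamini-Hochberg adjusted p = 1.11e-06 by edgeR). Prkacb, a catalytic subunit of protein kinase A, which primes GLI proteins for processing into repressors, fell to 48.3 ± 3.6 CPM in YAP5SA, against 83.6 ± 6.0 CPM in control. Its regulatory partner Prkar1a fell by 0.19 on the log2 scale and the GLI kinase gene Dyrk2 by 0.50. Prkaca, the other catalytic subunit gene of the list, was at a higher level than Prkacb in both groups and did not fall. It was at 119.0 ± 3.8 CPM in YAP5SA and 108.8 ± 8.4 CPM in control and did not pass (Benjamini-Hochberg adjusted p = 0.0758 by edgeR). Kif7, a kinesin that organises the tip of the cilium, Mgrn1, a ubiquitin ligase that helps to remove Smo from the surface, and Grk2, a kinase of Smo, rose by 0.77, 0.16 and 0.15 on the log2 scale. The Kif7 call was lost without any 1 library other than control 2 (adjusted p of 0.0536 to 0.147, edgeR), without a filter on low counts (0.102) and by DESeq2 (0.0723), and the Mgrn1 call without any 1 of control 1, 2 or 3 or YAP5SA 1, 2 or 3 (0.0724 to 0.151). The Grk2 call was lost without control 2 or 3 or YAP5SA 2, 3 or 4 (adjusted p of 0.0517 to 0.0975, edgeR).

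Of 17 genes of the primary cilium, 3 rose, 5 fell and 9 did not pass. That is 47.1% past the test, beside 49.1% of all tested genes. Cc2d2a and Tmem67, proteins of the gate at the base of the cilium, fell, Cc2d2a to 3.27 ± 0.57 CPM in YAP5SA, against 9.44 ± 0.76 CPM in control, and Tmem67 to 5.06 ± 0.58 CPM in YAP5SA, against 8.54 ± 1.48 CPM in control. Rpgrip1l, Efcab7 and Iqce also fell, by 0.44, 0.63 and 0.46 on the log2 scale (Benjamini-Hochberg adjusted p = 0.00106, 0.000694 and 0.00293 by edgeR). These falls were not run through the alternative fits. The partner genes Evc and Evc2, whose proteins pass the Smo signal on inside the cilium, rose by 0.52 and 0.54 on the log2 scale. Evc2 was at 19.2 ± 0.9 CPM in YAP5SA and 13.2 ± 0.1 CPM in control. Intu, a gene of cilium assembly, rose by 0.29 on the log2 scale, a call lost without control 1 or 3 or YAP5SA 2, 3 or 4 (adjusted p of 0.0627 to 0.122, edgeR).

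Of 18 genes described as Hedgehog targets in other tissues, 13 were tested, 3 of which rose and 8 fell. That is 84.6% past the test, beside 49.1% of all tested genes (23.6% higher in YAP5SA and 25.5% lower). The median log2 fold change of the 13 was −0.48. Foxl1 and Nkx3-2, factors of gut mesenchyme, had 0 reads in all libraries. Foxf1 and Foxf2 had 2 and 8 reads over the YAP5SA group and 0 in control, too few to test. Foxa2, a factor of endoderm and of the neural floor plate, was at 0.71, 0.61, 0.64 and 1.12 CPM in YAP5SA 1 to 4, against 17.1, 16.8, 18.5 and 15.1 CPM in control 1 to 4. The fall was 21.7-fold (Benjamini-Hochberg adjusted p = 3.98e-13 by edgeR). Mycn, a growth regulator of the MYC family, was at 0.14 ± 0.08 CPM in YAP5SA and 3.70 ± 0.77 CPM in control, and Bcl2, which blocks cell death, was at 35.4 ± 0.9 CPM in YAP5SA and 55.4 ± 5.7 CPM in control. Both fell, by 4.69 and 0.64 on the log2 scale. The genes that went against the list were Foxm1, a driver of mitotic genes (58.9 ± 4.0 CPM in YAP5SA, 39.7 ± 1.9 CPM in control), the Notch ligand gene Jag2 (86.9 ± 3.3 CPM in YAP5SA, 61.5 ± 5.9 CPM in control) and Osr1 (1.40 ± 0.33 CPM in YAP5SA, 0.21 ± 0.02 CPM in control). Many of these genes answer to other pathways as well, and the cause of their changes was not tested.

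**Figure D4:**
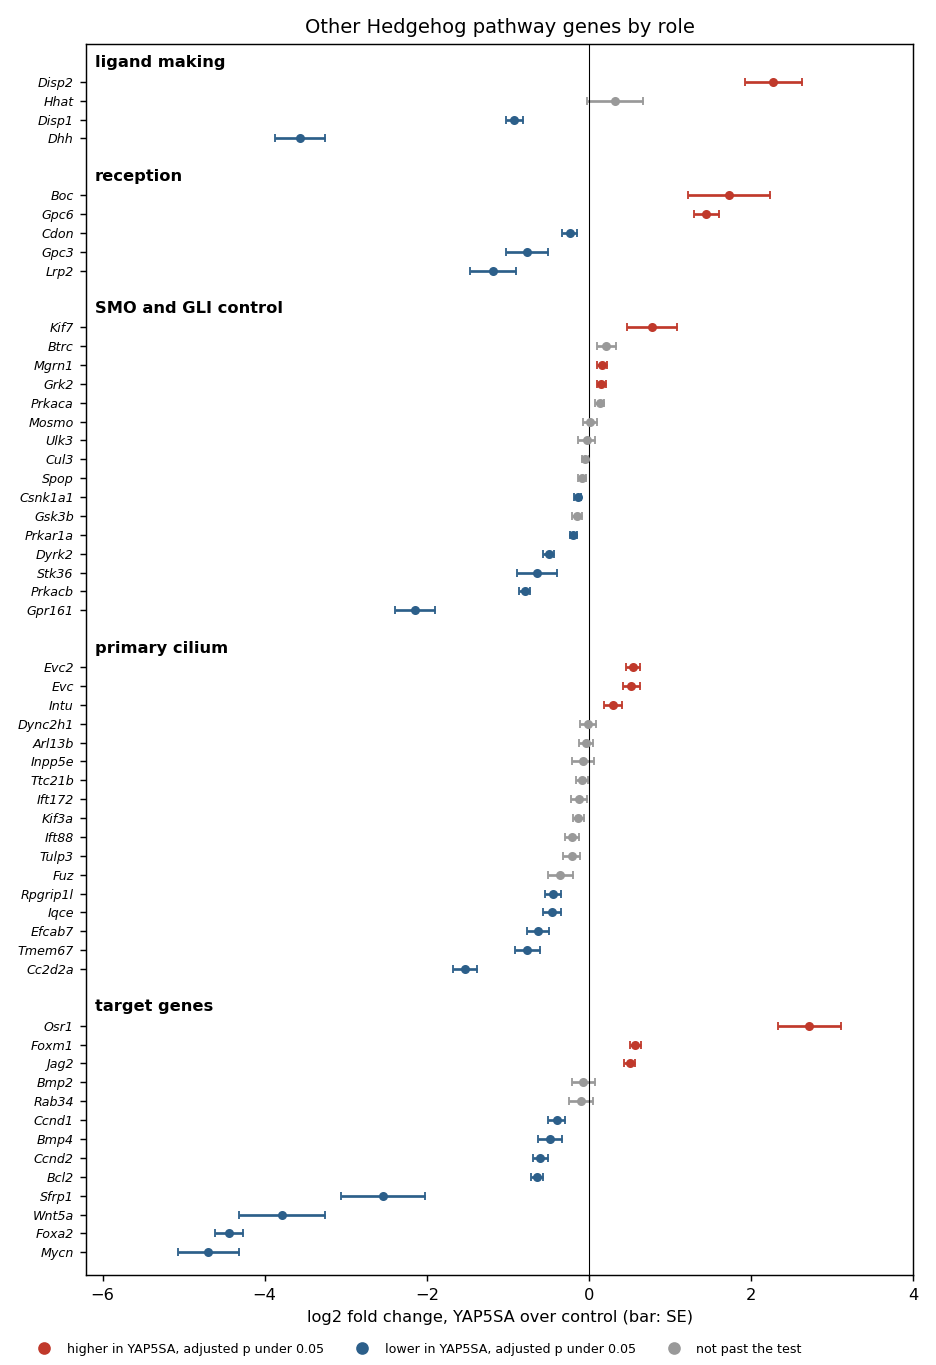
Log2 fold change, YAP5SA over control, with SE, of the 55 tested other Hedgehog pathway genes, sorted within 5 roles. Red points are higher and blue points lower in YAP5SA at an adjusted p under 0.05, and grey points did not pass; Mycn and Foxa2 are the lowest at −4.69 and −4.44, and 9 of the 17 cilium genes are grey.

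Among 14057 other tested genes, those with profiles closest to Shh over the 8 libraries were Ncapd2, Tbl1xr1 and Slc1a5, at root mean square differences of 0.06, 0.07 and 0.07 on the log2 scale after centring. Ncapd2 was at 123.1 ± 7.4 CPM in YAP5SA and 79.0 ± 5.5 CPM in control. The closest to Ihh were Rhoj, Prss12 and Gm3650, at differences of 0.24, 0.33 and 0.34. Rhoj was at 0.47 ± 0.15 CPM in YAP5SA and 3.11 ± 0.50 CPM in control, levels as low as those of Ihh.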

How the data were processed

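Per the labels' protocols, total RNA of 8 organoid libraries was sequenced from both ends, 150 bp each. The deposited values are read counts per gene, not normalized. The submitters' processing notes name cutadapt, HISAT2 2.0.1, HTSeq 0.6.1 and build mm9. The annotation and the strand setting were not given in the sources used here, so reads of overlapping antisense genes cannot be told apart. Rows without a gene name (2639 of 56691 rows, 0.190% to 0.221% of counts) were left out, and rows sharing a symbol were summed.

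Genes were kept by filterByExpr (minimum count 10, minimum total 15), scaled by TMM, and fitted on genotype alone by edgeR 4.0.16 (R 4.3.3; quasi-likelihood test, glmQLFit with the robust option, then glmQLFTest), with Benjamini-Hochberg adjustment over all tested genes and a threshold of 0.05. Each fold change divides YAP5SA by control, and its SE is the log2 fold change over the root of its F value. DESeq2 1.42.0 was an alternative. CPM use TMM-scaled library sizes; exon lengths and chromosomes come from GENCODE M21, another build than mm9, and serve only for levels per kb; the longest transcript as length was an alternative added after seeing the data. A profile is log2 CPM with a prior count of 2. In simulated counts (14049 genes tested) the test recovered 60.6% of 71 planted 1.5-fold, 93.2% of 59 planted 2-fold and 100% of 69 planted 4-fold changes. Of its 179 calls, 6.70% were false. The simulated libraries were independent, and far fewer genes changed than in the data, where 6899 of 14058 passed. These shares therefore do not carry over to the data. Poisson intervals cover counting error only.

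The members, lists and rules were chosen with earlier results of these data known. Named were all members; of each pathway list the up to 4 genes with the smallest adjusted p and those called against the main direction; the 3 profiles closest to Shh and to Ihh; and set markers. Lum, Barx1, Sox2, Tek, Ret, Msln, Gas1, Cdon, Prkaca, Foxl1, Nkx3-2, 9530036O11Rik and Xist were named after their values were seen. So were Rpgrip1l, Efcab7, Iqce, Foxf1 and Foxf2. A few genes of the lists were not analysed here, and the list counts are without them. No 2 libraries were identical or within sampling noise.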

Additional observations from a re-analysis of the deposited data

How the results depend on the processing

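Under 14 alternatives, no sign turned among the 31 tested genes named by rule, and 25 of them stayed on their side of the threshold in every fit that held them (Hhat, Boc and Osr1 were removed by the filter at a mean CPM of at least 1). Shh (log2 fold change 0.61 to 0.74), Ihh (−2.92 to −2.44), Ptch1 (0.35 to 0.50) and Smo (0.04 to 0.13) were among these. The 6 that lost their call in some fits were Sufu (8 of 14), Kif7 (10), Mgrn1 (7), Grk2 (6), Intu (5) and Gpc3 (2); the cause was not tested. The number of members called was 3 to 4 throughout, and that of other pathway genes was 30 to 35 when 1 library was left out and 32 to 36 otherwise. Scaling by library size alone gave 3635 genes higher and 3282 genes lower in YAP5SA, against 3315 and 3584 with TMM, and moved the median gene by 0.03 on the log2 scale. Titles give both groups the numbers 1 to 4, but same-numbered libraries did not deviate together (correlations −0.08 to 0.09), and 1 of 4 matched its own number best. With the replicate block 6586 genes were called, among them 3 members (Sufu was lost, adjusted p = 0.0635, edgeR) and 32 other pathway genes. Of the genes named by rule, Kif7, Mgrn1 and Grk2 were lost under the block as well (adjusted p = 0.0783, 0.0729 and 0.0648, edgeR). Depth limits the statements on Gli1, Gli2, Gli3 and Hhip, and Ihh in YAP5SA rests on 31 reads.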

Other observations

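Relatives of the GLI factors, chosen after the member values were seen, were present where Gli1 and Gli2 were not. Glis3, a zinc finger factor related to the GLI proteins, fell to 13.2 ± 2.0 CPM in YAP5SA, against 27.9 ± 6.5 CPM in control (SD, n = 4 each; log2 fold change −1.07 ± 0.15 SE, adjusted p = 3.05e-05, edgeR with Benjamini-Hochberg adjustment). Glis2 was at 18.2 ± 1.3 CPM in YAP5SA and 17.1 ± 2.2 CPM in control and did not pass the test (adjusted p = 0.478, edgeR). Of the related Zic genes, Zic5 was at 7.35 ± 1.49 CPM in YAP5SA and 5.42 ± 0.91 CPM in control (log2 fold change 0.44 ± 0.17 SE, adjusted p = 0.0394, edgeR). The Zic5 groups overlapped (YAP5SA 5.96 to 9.45 CPM, control 4.28 to 6.50 CPM), and the call was not run through the alternatives. Zic2 did not reach the filter and was not tested, with 67 reads in YAP5SA and 11 in control (1.03 ± 0.46 and 0.16 ± 0.13 CPM). Glis1, Zic1 and Zic4 were nearly absent and also not tested.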
